A study of Mus musculus with 8 samples.

Results

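Complex II, or succinate dehydrogenase, is built from 4 subunits and needs 4 dedicated assembly factors, and its 8 genes are described here in mouse kidney. They are Sdha, Sdhb, Sdhc and Sdhd for the subunits and Sdhaf1, Sdhaf2, Sdhaf3 and Sdhaf4 for the assembly factors. Their features were found by gene symbol, current or older. On the array they were covered by 10 of 45220 features: 1 for each gene, except that Sdhb and Sdhc had 2 each. All 10 features had values on all 8 arrays and entered the fit with 39253 features in all.

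Kidney RNA of male mice aged 10 weeks, of 129/SvJ background, was hybridised on 8 two-colour arrays, 4 for each genotype group. Each array set RNA of 2 mice in Cy5 against one common pool in Cy3, made from 8 +/+ mice, and the dyes were not swapped. Tamoxifen (100 µg/g) was injected into the mice once a day on 4 days, starting when they were 9 weeks old, and kidneys were taken 1 week later. The comparison of SDHD-ESR with +/- asks what follows the loss of the remaining Sdhd allele, and that of each group with the pool sets it against mice with 1 floxed and 1 normal allele. The +/+ mice were SdhD flox/+ and the +/- mice SdhD flox/-, both without Cre. SDHD-ESR mice were SdhD flox/- with the tamoxifen-inducible recombinase Cre-ER, so that loss of Sdhd and presence of Cre cannot be told apart. The promoter that drives Cre-ER is not given in the sources used here. Each group stands for 8 mice in 4 pairs, and the p-values measure the spread between arrays of pooled pairs. Whole kidney was used, so fewer cells with a transcript and less of it per cell cannot be told apart.

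Complex II sits in the inner mitochondrial membrane, where it oxidises succinate to fumarate in the Krebs cycle and passes the electrons to ubiquinone. Sdha carries the flavin and binds succinate, Sdhb holds the iron-sulfur clusters, and Sdhc and Sdhd anchor the enzyme in the membrane and form the site for ubiquinone. The assembly factors act before the complex is complete: Sdhaf2 and Sdhaf4 serve Sdha, the former in attaching its flavin, while Sdhaf1 and Sdhaf3 serve the clusters of Sdhb. In people, inherited loss of SDHD, SDHB, SDHC, SDHA or SDHAF2 predisposes to paraganglioma.

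The genes lie apart in the genome (build GRCm38.p6). Sdhd lies on chr9:50596340-50603849, Sdha on chr13:74322255-74350240 and Sdhb on chr4:140961271-140979198. Sdhc is on chr1:171129157-171150640 and shares its chromosome with Sdhaf4, on chr1:23995939-24005640. Sdhaf1 is on chr7:30321409-30322375, Sdhaf2 on chr19:10500512-10525209 and Sdhaf3 on chr6:6955971-7039661. Where the Sdhd probe lies with respect to the floxed part of the gene is not given in the sources used here.

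To show what the start regions of the deleted gene and of the catalytic subunit share, the RefSeq windows of 300 bases around the starts of Sdhd (chr9:50603800-50604099, minus strand) and Sdha (chr13:74350191-74350490, minus strand) follow, 5′ to 3′ on the strand of the gene. Capitals mark matches on either strand to a pair of GCGC half-sites with A and any base (AN) between them, the core of sites bound by nuclear respiratory factor 1, and to CCGGAAG, the core of sites of ETS proteins.
Sdhd: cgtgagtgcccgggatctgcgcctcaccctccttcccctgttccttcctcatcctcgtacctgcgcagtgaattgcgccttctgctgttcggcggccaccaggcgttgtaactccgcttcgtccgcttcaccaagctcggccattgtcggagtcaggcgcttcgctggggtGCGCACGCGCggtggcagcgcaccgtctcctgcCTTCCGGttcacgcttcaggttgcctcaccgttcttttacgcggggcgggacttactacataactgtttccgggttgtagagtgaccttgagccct
Sdha: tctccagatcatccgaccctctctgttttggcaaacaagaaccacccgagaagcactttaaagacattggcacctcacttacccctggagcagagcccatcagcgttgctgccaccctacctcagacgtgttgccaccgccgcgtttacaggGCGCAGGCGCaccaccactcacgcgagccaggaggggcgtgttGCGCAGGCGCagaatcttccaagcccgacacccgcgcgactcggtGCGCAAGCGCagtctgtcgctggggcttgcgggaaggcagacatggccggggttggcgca
The Sdhd window held 1 match of each kind, and the Sdha window held 3 of the first and 0 of the second. Windows were at hand for 7 of the 8 genes, Sdhc being the exception. The pair of GCGC half-sites was found in 4 of these 7 windows (Sdha, Sdhd, Sdhaf3 and Sdhaf4) against 4.60% of 32851 windows of all genes, and CCGGAAG in 5 of 7 (Sdhb, Sdhd, Sdhaf1, Sdhaf2 and Sdhaf3) against 8.86%. No match of one kind overlapped one of the other in these windows. Both patterns contain C followed by G, and the shares over all windows were not matched for base content. These are matches of letters, and binding was not measured. Sdhd starts at base 251 of its window. Timm8b, which encodes a small chaperone of mitochondrial protein import, starts on the opposite strand, with 51 bases, 200 to 250 of the window, between the starts. The Timm8b feature lay within 0.01 of a log2 ratio of 0 on 7 of 8 arrays, with 0.41 on the other, so no difference was read for this neighbour.

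Each value is the log2 of test RNA over pool, and differences between groups are given after each array was centred on its median. The sign of all deposited values was turned, which opposes the direction that the stated dyes give, because Sdhd stood above the pool on all 8 arrays as deposited. The direction of Sdhd was therefore set and is not a result, and all other directions depend on it. Array medians ran from -0.19 to 0.94 before centring and were higher in SDHD-ESR by 0.26 on average. They ranged from -0.19 to 0.41 in +/- and from -0.06 to 0.94 in SDHD-ESR, and correlations between arrays ran from 0.363 to 0.518. The order of arrays on a slide followed genotype, with +/- in positions 1 and 2 and SDHD-ESR in positions 3 and 4, so that position and genotype cannot be told apart. Replicates 1 and 2 of each group shared slide 1, and replicates 3 and 4 shared slide 2. Of 11 kidney marker genes tested, 4 had a feature near 0 and 0 differed between groups at an adjusted p of 0.05 or less (limma). A ratio to kidney RNA carries no level, so these markers do not check the tissue label. Of 6 liver markers, 4 were higher and 2 lower in SDHD-ESR, and 0 passed the adjusted threshold. Against the pool their median was -1.13 in +/- and -0.69 in SDHD-ESR. The lowest p among the liver markers was that of Fgb, with a difference of 1.67 (limma, adjusted p = 0.475). In SDHD-ESR 7 of 7 adrenal markers were higher, 5 of 6 leukocyte markers lower and 4 of 5 fat markers lower. Of these, 0 passed the adjusted threshold. Any part of such RNA in the values of complex II genes was not tested.

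With the sign turned, Sdhd stood in SDHD-ESR at 10.2% of its level in +/-. Its log2 ratios in +/- were -0.79, -0.40, -0.92 and -0.93 in replicates 1 to 4. Those of SDHD-ESR were -4.26, -3.65, -5.04 and -3.25. Every +/- array thus stood below its own array median, every SDHD-ESR array stood far lower still, and the groups did not overlap. The side was set by the turned sign. With either sign, the SDHD-ESR arrays lay farther from their medians than the +/- arrays. The means were -0.76 ± 0.25 (SD, n = 4) in +/-, or 59.0% of the pool, and -4.05 ± 0.78 in SDHD-ESR, or 6.03%. The difference was -3.29 ± 0.37 (SE), with a 95% interval of -4.16 to -2.42, which is a ratio of 0.102 between 0.0559 and 0.187. It was -3.36 on slide 1 and -3.22 on slide 2. The difference gave p = 0.0286 in an exact two-sided permutation test, the smallest that 4 against 4 arrays allow, and an unadjusted p of 3.3e-05 in limma, which became 0.108 when adjusted over all features. So the deleted gene itself missed the threshold across the array. Against the pool, two-sided and so whichever way the sign is turned, Sdhd passed the threshold in SDHD-ESR (limma, adjusted p = 1.78e-04) and not in +/- (adjusted p = 0.0868), although its 4 arrays lay on the same side of the pool.

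**Figure D1:**
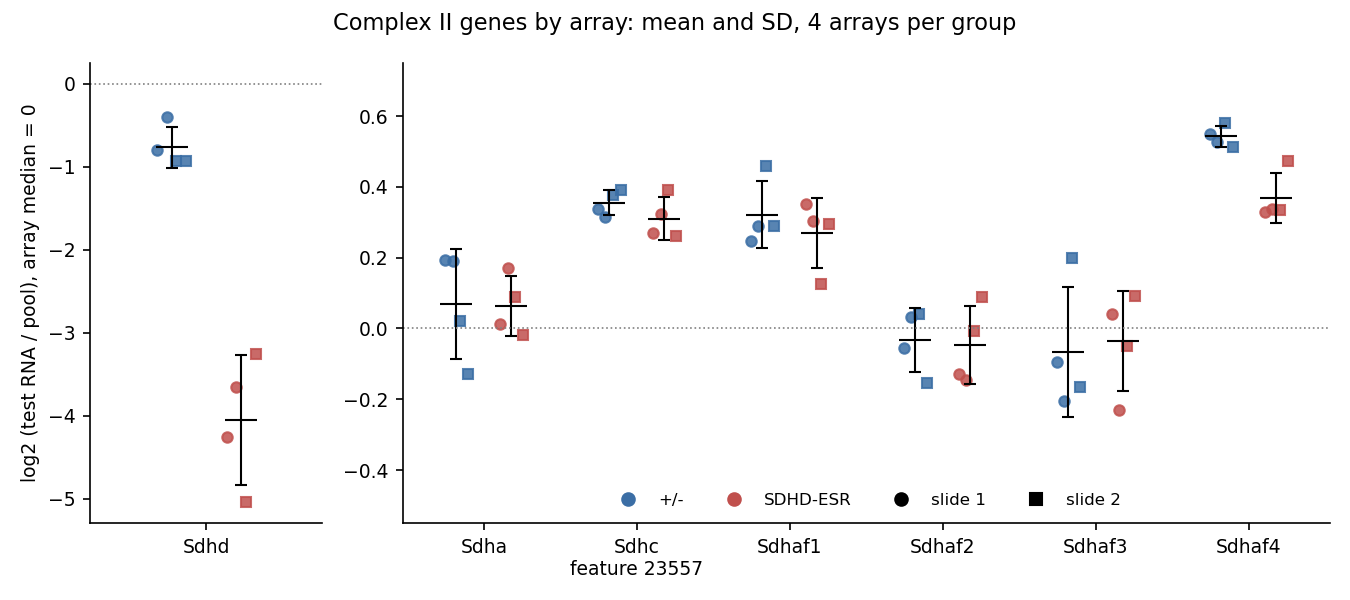
Log2 ratio of test RNA over the pool, centred on the array median, for the 7 complex II features not near 0. Points are single arrays (circles slide 1, squares slide 2; blue +/-, red SDHD-ESR), and bars give the mean and SD of 4 arrays. Sdhd has its own axis: its SDHD-ESR arrays sit between -5.04 and -3.25, below all +/- arrays, and all other means lie between -0.07 and 0.54.

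The other subunits could be compared only in part. Both features of Sdhb, and 1 of the 2 of Sdhc (feature 24401), lay within 0.01 of 0 on at least 6 arrays before centring. The second Sdhb feature (3175) was at most 0.0042 from 0 on all 8 arrays and the Sdhc feature at most 0.0035, although the array medians moved by more than 1 log2 unit. The first Sdhb feature (29730) was at most 0.0025 from 0 on 7 arrays and stood at 0.28 in SDHD-ESR replicate 4, the array with the highest median. Centring turns such values into the array median with its sign changed, so neither a level nor a difference was read for them. In all, 1078 features of the 45220 behaved this way. Spot intensities are not used here, and what held these features at 0 was not tested.

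Sdha, the catalytic subunit, was near 0 on 2 arrays, +/- replicates 1 and 2, and moved with the array median on the others. Its centred ratios were 0.19, 0.19, 0.02 and -0.13 in +/- and 0.01, 0.17, 0.09 and -0.02 in SDHD-ESR. The ranges overlapped. With all 8 values the difference was -0.01 ± 0.10 (SE), with a 95% interval of -0.25 to 0.24 and an adjusted p of 0.995 (limma), but the 2 values of 0.19 in +/- are array medians with the sign changed. Without them 2 +/- arrays were left and the difference was 0.12, and on slide 2 alone it was 0.09, so that no direction was read for Sdha.

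Sdhc, the partner of Sdhd in the membrane, was measured by feature 23557. The +/- arrays read 0.34, 0.32, 0.38 and 0.39, and the SDHD-ESR arrays 0.27, 0.32, 0.39 and 0.26. All 8 arrays were above the pool, by about the same amount in both groups. The means of 0.36 ± 0.04 and 0.31 ± 0.06 (SD, n = 4 each) correspond to 128% and 124% of the pool, with adjusted p-values of 0.00861 and 0.00849 (limma). Between the groups the difference was -0.04 ± 0.07 (SE), with a 95% interval of -0.22 to 0.13. With the sign as turned, Sdhd lost most of its transcript, while a fall in Sdhc of more than 0.22 log2 units lay outside that interval. With no centring the Sdhc difference was 0.22 in the other direction, so this bound holds for the centred values only.

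**Figure D2:**
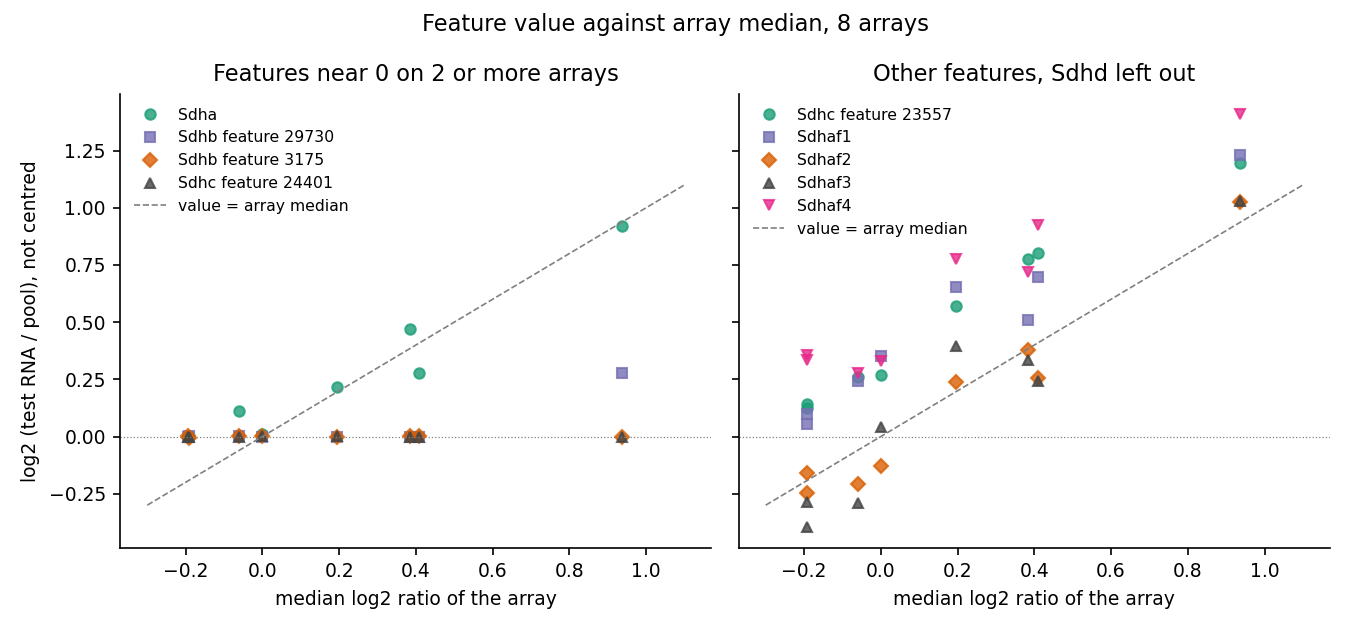
Log2 ratio of each feature before centring (vertical) against the median log2 ratio of the array (horizontal), 8 arrays per feature. On the left, the Sdhb features and Sdhc feature 24401 stay at 0 while the median runs from -0.19 to 0.94, except 1 Sdhb value of 0.28, and Sdha follows the dashed line except at the lowest medians. On the right, the other features, with Sdhd left out, follow the line or run parallel to it.

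Among the assembly factors, Sdhaf4 was the one whose groups did not overlap. This factor, which protects the flavin-loaded Sdha until it joins Sdhb, read 0.55, 0.53, 0.58 and 0.51 on the +/- arrays and 0.33, 0.34, 0.33 and 0.47 on the SDHD-ESR arrays. Every SDHD-ESR array lay below every +/- array, with replicate 4 of SDHD-ESR closest to them. The means were 0.54 ± 0.03 and 0.37 ± 0.07 (SD, n = 4 each), or 146% and 129% of the pool. The difference of -0.17 ± 0.07 (SE) left 88.6% of the +/- level, and was -0.21 on slide 1 and -0.14 on slide 2. The exact two-sided permutation test gave p = 0.0286 and limma an unadjusted p of 0.0497, which was 0.691 after adjustment, so the difference failed the correction. Before centring the difference was 0.09 in the other direction and the groups overlapped, so that it rests on the scaling of the arrays.

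The remaining assembly factors differed by less than the spread between arrays. Sdhaf1, needed for the clusters of Sdhb, read 0.25, 0.29, 0.46 and 0.29 on the +/- arrays and 0.35, 0.30, 0.12 and 0.30 on the SDHD-ESR arrays. All its arrays were above the pool and the groups overlapped, with a difference of -0.05 ± 0.09 (SE) and a 95% interval of -0.26 to 0.16. Sdhaf2, the flavin factor, had -0.05, 0.03, 0.04 and -0.15 in +/- and -0.13, -0.15, -0.01 and 0.09 in SDHD-ESR. It scattered around the pool in both groups, and its difference was -0.01 ± 0.09 (SE), with an interval of -0.23 to 0.20. Sdhaf3, which also serves Sdhb, read -0.09, -0.20, 0.20 and -0.17 in +/-, and 0.04, -0.23, -0.05 and 0.09 in SDHD-ESR. It had the widest scatter of the assembly factors in both groups, and its difference was 0.03 ± 0.12 (SE), with an interval of -0.26 to 0.32.

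Over the 10 features, 0 passed an adjusted p of 0.05 in SDHD-ESR against +/- (limma), where 0.0153% of all features passed, which is 6 features. At an unadjusted p of 0.05, 2 of 10 passed (Sdhd and Sdhaf4) against 7.22% of all features. These 2 were also those without overlap between the groups, which 5.37% of all features showed, and the 2 that met the joint criteria of the study (adjusted p of 0.05 or less for SDHD-ESR against the pool and unadjusted p of 0.05 or less between groups), which 3.75% of all features met. The 7 features not near 0 had a median difference of -0.04, against 0.01 over all features. Sdhd apart, their differences lay between -0.17 and 0.03. Their own SEs ran from 0.07 (Sdhc) to 0.12 (Sdhaf3), where the median SE over all features was 0.18.

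Against the pool, Sdhc, Sdhaf1 and Sdhaf4 were higher in both groups. In +/-, 3 of 10 features passed the adjusted threshold, all above the pool, against 16.0% of all features in either direction and 10.0% above. In SDHD-ESR, 4 of 10 passed against 22.2%, with 3 above (14.4% of all features) and Sdhd below, a side set by the turned sign (7.72%). For Sdhaf4 the adjusted p was 0.00182 in +/- and 0.00512 in SDHD-ESR, and for Sdhaf1, at 125% and 120% of the pool, it was 0.0201 and 0.0254 (limma). These 3 features were above the pool on all 8 arrays both before and after centring, but their calls rest on it. With no centring 0 of 10 features passed in +/- and 1 in SDHD-ESR, and with replicate number as a block 1 passed in +/-. In the centred fit of +/-, 0 of 10 passed below the pool, against 5.94% of all features. Both groups were set against the same pool, which was 1 sample in 1 dye on all arrays, so that a difference from the pool and a dye effect cannot be told apart, and the spread among +/+ mice is left out.

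**Figure D3:**
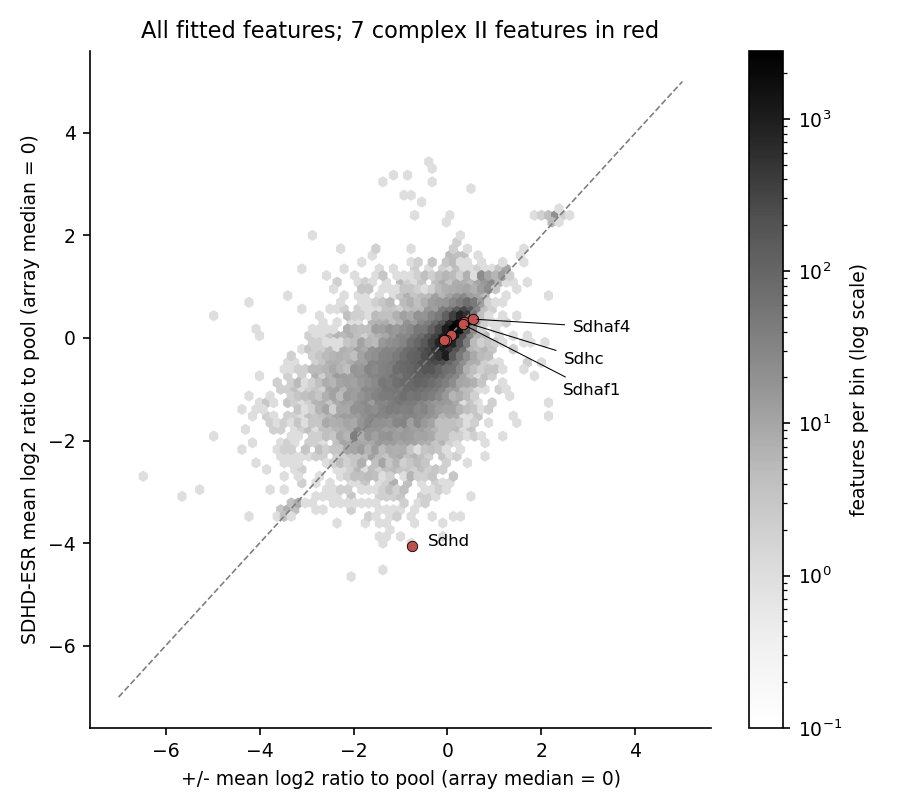
Mean log2 ratio to the pool in +/- (horizontal) and SDHD-ESR (vertical), each array centred on its median. Grey shading counts the 39253 fitted features (log scale), red points are the 7 complex II features not near 0, and the dashed line marks equal values. Sdhd lies far below the line at -0.76 and -4.05; the other 6 lie on or close to it.

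A difference taken within the array does not depend on how arrays are centred. Sdhd minus the mean of Sdha, Sdhb and Sdhc was -1.01, -0.62, -0.90 and -0.74 in +/- and -4.31, -3.80, -4.95 and -2.87 in SDHD-ESR. The groups stood apart on both slides, with means of -0.82 ± 0.17 and -3.98 ± 0.88 (SD, n = 4 each) and a difference of -3.16. Since Sdhb and part of Sdhc were held at 0, Sdhd was also set against the measured Sdhc feature alone, which gave -3.25, and against the mean of the 4 assembly factors, which gave -3.24. Relative to these assembly factors, Sdhd stood at 51.6% of the pool in +/- and at 5.48% in SDHD-ESR.

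Genes that work next to complex II were described in 9 lists: other dehydrogenases that feed ubiquinone, ubiquinone synthesis, Krebs cycle enzymes, succinate carriers with its receptor and makers, iron-sulfur cluster and flavin supply, complexes I, III and IV, and ATP synthase. Of 130 listed genes, 124 were tested, and 57 of these had at least 1 feature near 0 on at least 6 arrays. Such a gene was counted as near 0 even where another of its features was not, as with Sdhc. By this count, 21 of 35 genes were near 0 for complex I and 8 of 9 for complex III. The counts were 9 of 11 for complex IV and 11 of 14 for ATP synthase, against 3.00% of all genes by the same rule. The same held for 6 of 13 Krebs cycle enzymes, 2 of 8 of the other dehydrogenases and 0 genes of the other 3 lists, and for 4 of 11 kidney markers. Of the 67 others, 24 were higher and 43 (64.2%) lower in SDHD-ESR, against 46.1% lower over all genes, but these directions depend on the scaling. With no centring 65 of the 67 were higher. Also, 26 of the 67 had a feature near 0 on 1 to 5 arrays, where centring itself can move the difference either way, depending on the arrays. Among the 41 near 0 on no array, 17 were higher and 24 (58.5%) lower, against 45.0% of all such genes. Of the 67, 0 passed the adjusted threshold (limma, where 0.0146% of 20520 genes passed). At an unadjusted p of 0.05, 2 were higher and 1 lower, against 3.93% and 3.73% of all genes (7.66% in either direction).

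The largest of these differences was in Slc13a2, the sodium-coupled carrier that takes succinate and citrate up from the tubule. Its ratios were 0.48, 0.21, 0.22 and 0.24 in +/-, against 0.99, 1.05, 0.73 and 0.81 in SDHD-ESR. The groups did not overlap, and the difference was 0.61 ± 0.11 (SE), with an adjusted p of 0.320 (limma). Suclg2, a subunit of the enzyme that makes succinate from succinyl-CoA, differed by 0.33 ± 0.12 (adjusted p = 0.597), and Fh1, fumarate hydratase, which takes up the product of complex II, by 0.17 ± 0.09 (adjusted p = 0.740). Sucnr1, the receptor for succinate, differed by -0.24 ± 0.12 (adjusted p = 0.700), Pdss2, which makes the side chain of ubiquinone, by -0.24 ± 0.10 (adjusted p = 0.642), and Rfk, which makes flavin mononucleotide, by 0.19 ± 0.08 (adjusted p = 0.657). Coq9 and Coq10b, also in the list for ubiquinone synthesis, differed by -0.21 ± 0.10 (limma, adjusted p = 0.666) and -0.39 ± 0.19 (adjusted p = 0.690). Of the 12 genes tested in that list, 7 were higher and 5 lower. None of the genes named here passed the adjusted threshold.

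**Figure D4:**
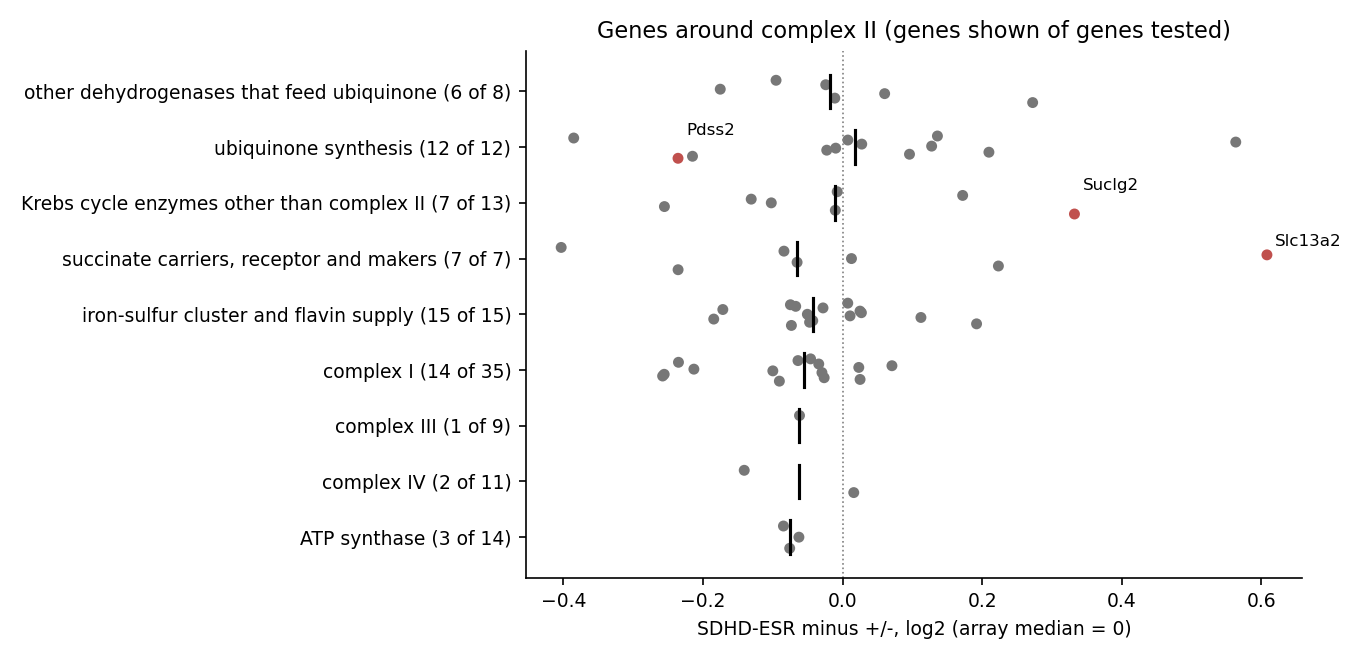
Difference between SDHD-ESR and +/- (log2, arrays centred on their medians) for genes of 9 lists around complex II. Each point is a gene with no feature near 0 on 6 or more arrays, and black bars are list medians. Red points have an unadjusted p of 0.05 or less, and the numbers in brackets give genes shown of genes tested. Slc13a2 at 0.61 is the highest point, and only 1 gene of complex III is left to show.

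The genes whose values followed Sdhd most closely over the 8 arrays, among 18089 genes, were Ifnar2 (Pearson r = 0.979), Gfm1 (r = 0.975) and Klhl9 (r = 0.960). Ifnar2 is a chain of the interferon alpha and beta receptor and Gfm1 a mitochondrial elongation factor. Their own differences were small beside that of Sdhd, at -0.19, -0.20 and -0.15. Those most like Sdha were Naa40 (r = 0.975), ND1 (r = 0.968) and Sod3 (r = 0.958). Sdha was near 0 on 2 arrays, ND1 on 3 and Sod3 on 4, so that the last 2 likenesses partly restate the array medians. These likenesses rest on 8 arrays that share a pool, and on the highest of very many values. With Sdhd, whose groups did not overlap, a high r mainly restates the split between groups. Likeness within a group was not tested. All these likenesses are descriptions. Sdhb and Sdhc, having features near 0 on at least 6 arrays, were not matched.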

How the data were processed

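The authors labelled 200 ng of kidney RNA per array, hybridised it to Agilent Mouse GE 4x44K v2 slides and read them in a GenePix scanner. The deposited values are log2 ratios of the channels, mixed with whole numbers (9.03% of values), which were set to missing. The sources used here do not give the authors' background correction, normalization or signal over background. The number of arrays limits the precision.

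Rows were assigned to platform features by a scanner grid of 532 by 85, inferred from the values. Repeated spots of 376 accessions then gave an intraclass correlation of 0.741, against -0.006 for the deposited order. For 4960 accessions with fewer spots, r between 2 spots was 0.300, against -0.009 for the deposited order. Of 45220 features, 33026 named 1 gene. The sign was turned and each array centred on its median. Features with at least 3 values per group went into limma 3.58.1 (R 4.3.3; a mean per group, empirical Bayes, two-sided, Benjamini-Hochberg over all features, threshold 0.05). Exact permutation tests stand beside single differences. In simulated data with 200 changed features of the 39253, the median estimates lay at the changes put in. The changes were fixed shifts on normal noise, fitted with the same model. This result therefore checks the code, and not how often real changes pass the threshold. Features within 0.01 of 0 on at least 6 arrays are called near 0, and a listed gene is counted as near 0 when any of its features is.

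Every feature of the 8 genes is described. Of each list up to 3 genes of smallest unadjusted p could be named, but not all of them were. The 3 genes most alike were left out for Sdhb and Sdhc. Members and lists were chosen with earlier results of these data known. List genes were matched by current or older symbol. Alternatives were no centring, quantile normalization, other filters, robust moderation, slide or replicate number as a block, averaging of features, leaving out each array and, added after seeing the data, dropping values or genes near 0, other partners for Sdhd and, for the lists, no centring.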

Additional observations from a re-analysis of the deposited data

Results flagged for a closer look

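The first Sdhb feature (29730) stood at 0.28 before centring in SDHD-ESR replicate 4, while the nearest of the other SDHD-ESR arrays read 0.0012. This array also had the highest median of all. The Sdhaf4 value of the same array, 0.47 after centring, lay apart from the other SDHD-ESR arrays, whose highest was 0.34, and was the nearest to the +/- arrays. Both were singled out because 1 array lay far from the other 3. Of 20 groups of 4 arrays examined, 2 stood out in this way, and chance gives about 1 in 20.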

How the results depend on the processing

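The count of complex II features called between groups was 0 under every alternative run. The Sdhd difference stayed between -3.56 and -2.96 over 18 alternatives, with adjusted p (limma) from 0.0730 to 0.645. The within-array difference of Sdhd was -3.24 on slide 1 and -3.09 on slide 2, where the exact test cannot pass 0.05, and -3.53 to -2.84 when arrays were left out. With no centring, the features called against the pool went from 3 to 0 in +/- and from 4 to 1 in SDHD-ESR, and those meeting the joint criteria from 2 to 1. The last count was also 1 with robust moderation, and 1 to 2 when arrays were left out: it was 1, with Sdhaf4 lost, when any array except SDHD-ESR replicate 4 was left out.

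With no centring, which leaves in the median shift of 0.26, differences turned to 0.25 for Sdha, 0.22 for Sdhc, 0.21 for Sdhaf1, 0.25 for Sdhaf2, 0.0856 for Sdhaf4, 0.0246 for Pdss2 and 0.0247 for Sucnr1. The Sdha difference also turned to 0.12 without its 2 values near 0 and to 0.0895 on slide 2 alone. Differences close to 0 also changed sign with the array left out, over -0.0713 to 0.0359 for Sdha, -0.0601 to 0.0183 for Sdhaf2 and -0.0163 to 0.119 for Sdhaf3. Against the pool, Sdhaf2 turned to 0.0218 in +/- and 0.27 in SDHD-ESR with no centring, to 0.15 and 0.13 with quantile normalization, and ran from -0.0579 to 0.00688 in +/- when arrays were left out (above 0 without replicate 4). Sdhaf3 turned to 0.11 in +/- and 0.15 in SDHD-ESR with quantile normalization, and in SDHD-ESR to 0.28 with no centring, and ran there from -0.0784 to 0.0283 when arrays were left out (above 0 without replicate 2).

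Same-numbered arrays did not deviate together (r of -0.02 to 0.05), so the numbers were not taken to pair them. With the replicate block the within-array difference was -3.16 (exact p = 0.125, the smallest possible), and 1 feature was called in +/- against the pool and 1 by the joint criteria. Over all features, calls between groups numbered 6 and ran from 0 to 8. Calls against the pool, 6266 in +/- and 8703 in SDHD-ESR, fell to 458 and 726 with no centring, rose to 15718 and 15664 with quantile normalization, and were 1769 and 5004 with the block. Leaving out an array gave at least 1859 and 4949.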
